A study of Mus musculus with 16 samples.

Results

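Integrins and their ligands hold lymphocytes in place and let them cross vessel walls, and the RNA of 9 such genes was followed here in the B cells of the mouse spleen. The genes were taken by symbol from the deposited expression table: Itgal, Itgb2, Itga4, Itgb1, Itgb7, Itgam, Icam1, Icam2 and Cd44. All 9 were found among the 27928 genes of the table, and all 9 passed the filter on low values that left 14761 genes for testing.

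An integrin is a pair of an α chain and a β chain, and each pair binds its own ligands. LFA-1, made from Itgal (αL) and Itgb2 (β2), binds ICAM molecules, whereas α4β1, made from Itga4 and Itgb1, binds VCAM-1 and fibronectin. Exchange of β1 for Itgb7 gives α4β7, which binds MAdCAM-1 and is best known for homing to the gut. In the spleen, LFA-1 and α4β1 are known for holding marginal zone B cells in place. Follicular (FO) B cells recirculate through blood and lymph nodes, and marginal zone (MZ) B cells of the mouse stay at the border of the white pulp.

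FO cells (CD21lo CD23hi) and MZ cells (CD21hi CD23lo) were sorted from spleens of WT C57BL/6 mice and of cKO mice, which carry Gtf2i fl/fl together with a Cre that acts in the B lineage. Gtf2i encodes the transcription factor TFII-I. No Cre or floxed allele is given for the WT mice, so effects of Cre cannot be told apart from the loss of Gtf2i. Each of the 4 groups had 2 RNA libraries, sequenced from total RNA depleted of ribosomal RNA. The labels do not say whether the replicates were separate mice, so the p-values measure only the spread between these samples.

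The libraries held 21546552 to 25083552 reads on genes, and values are normalized counts, that is reads divided by the size factor of the library. Differences are on a log2 scale and were tested with limma over all genes. A gene was called at an adjusted p of 0.05 or less together with a difference of 1.5-fold or more. The targeted gene Gtf2i was at 1992 to 2864 normalized counts in the WT libraries and at 1523 to 1889 in the cKO libraries, a mean difference over both subsets of −0.47 on the log2 scale (adjusted p = 0.0793, limma). Genes of the sort followed the labels: Fcer2a, which encodes CD23, was higher in FO cells and Cr2, which encodes CD21, was higher in MZ cells in both genotypes. Sex-linked genes differed with genotype: Xist was at 25930 or more in each WT library and at 89.7 or less in 3 cKO libraries, and Ddx3y was at 6.34 or less in WT and at 2682 or more in cKO. The library cKO FO replicate 1 carried both, with Xist at 14748. FO and MZ of cKO were therefore not alike in Xist, and the part of sex in FO minus MZ in cKO was not tested. The library cKO MZ replicate 1 stood apart by its granulocyte genes, whose sum was 2033 against 49.3 to 121 in the other 7 libraries, and by its erythroid genes, whose sum was 14413 against 26.9 to 1071. Sums of 10 T cell genes lay between 94.6 and 265, and sums of 5 B-1 cell genes between 782 and 1638. The B cell list of 8 genes summed to 211941 or more in every library. No member of the lists of these 5 cell types was at 0 in every library.

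Itgb7 gave the clearest separation of the subsets, so the region around its start is shown first, beside those of Itga4, its partner, and Itgb1, the other β chain that pairs with α4. The windows run from 250 bases before to 50 bases after the RefSeq start site and are written 5′ to 3′ on the strand of the gene, in build GRCm38.p6. Itga4 is at chr2:79255176-79255475 on the plus strand, Itgb1 at chr8:128685404-128685703 on the plus strand and Itgb7 at chr15:102231886-102232185 on the minus strand. Capitals mark the KLF box, searched as the letters CCACCC on both strands, so that a match on the other strand reads GGGTGG.
Itga4: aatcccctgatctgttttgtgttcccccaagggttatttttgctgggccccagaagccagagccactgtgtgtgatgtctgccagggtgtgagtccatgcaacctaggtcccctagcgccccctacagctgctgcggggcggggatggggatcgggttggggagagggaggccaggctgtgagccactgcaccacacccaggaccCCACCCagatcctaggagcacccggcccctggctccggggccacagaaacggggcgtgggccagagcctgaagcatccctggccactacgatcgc
Itgb1: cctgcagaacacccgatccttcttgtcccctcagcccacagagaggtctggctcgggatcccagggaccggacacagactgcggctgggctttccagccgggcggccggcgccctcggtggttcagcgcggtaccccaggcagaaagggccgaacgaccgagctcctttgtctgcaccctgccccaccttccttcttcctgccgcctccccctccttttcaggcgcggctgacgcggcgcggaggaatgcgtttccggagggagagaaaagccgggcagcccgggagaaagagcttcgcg
Itgb7: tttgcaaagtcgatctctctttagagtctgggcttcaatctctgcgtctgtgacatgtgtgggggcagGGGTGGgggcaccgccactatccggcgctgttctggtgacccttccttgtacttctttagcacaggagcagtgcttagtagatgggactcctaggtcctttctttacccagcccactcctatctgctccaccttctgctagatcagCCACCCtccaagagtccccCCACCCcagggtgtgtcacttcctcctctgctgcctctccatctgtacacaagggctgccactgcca

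The Itgb7 window held 3 KLF boxes, at −182, −36 and −17 from the start site. The Itga4 window held 1, at −45, and the Itgb1 window held none. Among the windows not shown, that of Icam1 held 2, at −117 and −90, and those of Itgam and Cd44 held none. Among 32851 windows of the same length, 31.5% held at least 1 match and 2.25% held 3 or more. These matches describe the letters of the windows and were not tested against the expression of the genes. The box was chosen for display after the matches were seen. The other motifs searched on both strands, with the share of all windows that hold them, were the E-box CANNTG (72.3%), its form CACGTG bound by USF (7.15%), GGNNNTTCC (18.5%), AGGAAG (35.4%) and GGGCGG (35.7%). Of these, CACGTG was in none of the 3 windows shown, and CANNTG was in those of Itga4, with 1 match, and Itgb7, with 2. RefSeq windows were matched by symbol for 6 of the 9 genes.

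Itgb7 was the gene that differed most between the subsets. In WT it was at 7206 and 7131 normalized counts in the FO libraries and at 1527 and 2111 in the MZ libraries. In cKO it was at 7277 and 7209 in FO and at 1416 and 1768 in MZ. All 4 FO libraries lay within a narrow range and every one was above every MZ library. The FO level was 3.99-fold that of MZ in WT, a log2 difference of 1.997 ± 0.16 (SE; adjusted p = 0.000321, limma), and 4.57-fold in cKO, a log2 difference of 2.19 ± 0.16 (adjusted p = 0.000191). By the size of the difference it ranked 531 of 14761 genes in WT and 563 in cKO. Without cKO MZ replicate 1 the cKO value was 2.03 (adjusted p = 0.00404). The gene lies at chr15:102215995-102231944 on the minus strand (GRCm38), and its call held in all 16 alternative analyses in both genotypes, the 8 that leave out a library included.

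Itgb1 (chr8:128685654-128733200, plus strand), the other partner of Itga4, was higher in MZ cells. It was at 934 and 1106 in FO and 1552 and 2187 in MZ libraries from WT mice, and at 1089 and 934 in FO and 2265 and 1781 in MZ libraries from cKO mice. The FO and MZ libraries did not overlap in either genotype, although the MZ libraries were spread more widely. The log2 difference of FO from MZ was −0.86 ± 0.19 in WT (SE; adjusted p = 0.0214, limma) and −0.99 ± 0.19 in cKO (adjusted p = 0.0106). The call in WT was lost without WT FO replicate 1 (−0.73, adjusted p = 0.105) and without WT MZ replicate 2 (−0.61, adjusted p = 0.0867). The call in cKO was lost without cKO FO replicate 2 (−0.88, adjusted p = 0.0714) and without cKO MZ replicate 1 (−0.82, adjusted p = 0.0884), the library with the high granulocyte and erythroid sums.

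Itga4 itself differed little. It was at 14852 and 13645 in FO and 11259 and 11911 in MZ libraries from WT mice, and at 14442 and 12970 in FO and 10956 and 10945 in MZ libraries from cKO mice. FO libraries were above MZ libraries in both genotypes without overlap, by a log2 difference of 0.30 in WT (95% interval 0.083 to 0.51, adjusted p = 0.067, limma) and 0.32 in cKO (0.11 to 0.54, adjusted p = 0.047). Neither reached the 1.5-fold required for a call. Itga4 shares 1124 exon bases with Cerkl on the opposite strand, a gene with a mean of 55.2 normalized counts.

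**Figure D1:**
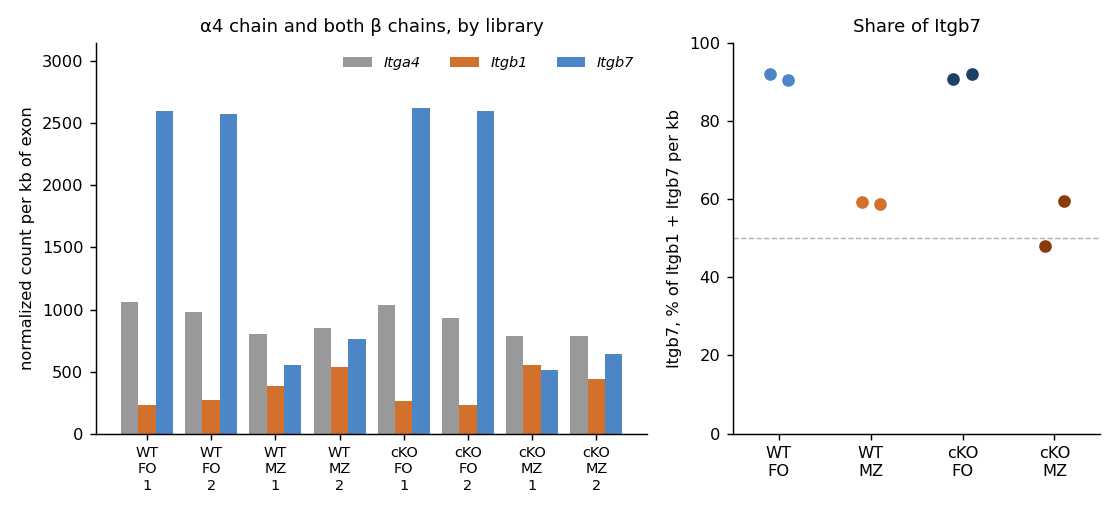
Itga4, Itgb1 and Itgb7 in each library as normalized counts per kilobase of exon (left), and Itgb7 as a percent of the sum of both β chains per kilobase (right, 1 point per library, dashed line at equal levels). Itgb7 made up 90.5% to 91.9% of the sum in the 4 FO libraries and 48.0% to 59.4% in the 4 MZ libraries.

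Per kilobase of exon, where levels of different genes can be set side by side, the β chains that can pair with α4 had a different balance in the 2 subsets. Itgb7 was 9.49 to 11.4 times Itgb1 in the FO libraries and 0.921 to 1.46 times Itgb1 in the MZ libraries. The lowest ratio was that of cKO MZ replicate 1, and the other 3 MZ libraries lay between 1.42 and 1.46. The sum of both β chains was 2830 to 2894 per kilobase in FO and 931 to 1298 in MZ. Itga4 was accordingly 0.328 to 0.375 of this sum in FO and 0.656 to 0.865 in MZ. None of these ranges overlapped between the subsets. The ratios are given as a description and were not tested. The values are of RNA, and β1 also pairs with other α chains.

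Itgal (chr7:127296260-127335138, plus strand), the α chain of LFA-1, was higher in MZ cells of both genotypes. It was at 7706 and 7864 in FO and 13125 and 11576 in MZ libraries from WT mice, and at 6552 and 6664 in FO and 9261 and 11162 in MZ libraries from cKO mice. Every MZ library was above every FO library. The log2 difference of FO from MZ was −0.66 ± 0.11 in WT (SE; adjusted p = 0.00663, limma) and −0.62 ± 0.11 in cKO (adjusted p = 0.00768). The size of the difference, 1.58-fold in WT and 1.54-fold in cKO, was close to the 1.5-fold required. Without WT MZ replicate 1 it was −0.57 in WT and without cKO MZ replicate 2 it was −0.49 in cKO, both under 1.5-fold. Without cKO FO replicate 1 the cKO difference was −0.61 (adjusted p = 0.0544), and without cKO MZ replicate 1 it was −0.76 (adjusted p = 0.0163).

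Itgb2, the β chain of LFA-1, was at 3804 and 3984 in WT FO and at 5126 and 4891 in WT MZ. In cKO it was at 4171 and 4004 in FO and at 4984 and 5257 in MZ. MZ libraries were again above FO libraries without overlap. The differences passed the p threshold in both genotypes but not the fold threshold: −0.36 ± 0.08 on the log2 scale in WT (SE; adjusted p = 0.0188, limma) and −0.32 ± 0.08 in cKO (adjusted p = 0.0256). Per kilobase, Itgal was 0.917 and 0.941 of Itgb2 in WT FO and 1.10 and 1.19 in WT MZ. The corresponding values in cKO were 0.730 and 0.773 in FO and 0.863 and 0.987 in MZ.

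Itgam encodes αM, the partner of β2 in the Mac-1 integrin of myeloid cells and of B-1 cells. It was far the lowest of the 9 genes, at 16.0 and 39.0 in FO and 26.0 and 54.3 in MZ libraries from WT mice, and at 12.3 and 16.1 in FO and 33.9 and 30.9 in MZ libraries from cKO mice. FO and MZ libraries overlapped in WT and did not in cKO. The log2 difference of FO from MZ was −0.57 in WT (95% interval −1.77 to 0.63, adjusted p = 0.519, limma) and −1.15 in cKO (−2.35 to 0.056, adjusted p = 0.168). In WT, replicate 2 of each subset was the higher in Itgam and also in the sum of 12 macrophage and monocyte genes, which was 754 and 1410 in FO and 769 and 2019 in MZ libraries. In cKO this sum was 1197 and 752 for FO and 2141 and 1346 for MZ. Replicate 1 of cKO MZ was the higher in both, whereas replicate 2 of cKO FO had the higher Itgam and the lower sum. None of the 12 genes was at 0 in every library. The part of such cells in the Itgam values was not tested, and in bulk RNA fewer cells of a type and less RNA per cell cannot be told apart. Itgam also shares 3450 exon bases with Gm49368 on the same strand, so its counts are uncertain.

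Icam2 (chr11:106377656-106388075, minus strand), a ligand of LFA-1 present on resting lymphocytes and endothelium, was higher in FO cells. It was at 2317 and 3111 in FO and 1178 and 1564 in MZ libraries from WT mice, and at 2227 and 3044 in FO and 1480 and 1455 in MZ libraries from cKO mice. FO and MZ libraries did not overlap in either genotype, and replicate 2 was the higher of the FO libraries in both. The log2 difference was 0.98 ± 0.20 in WT (SE; adjusted p = 0.0159, limma) and 0.83 ± 0.20 in cKO (adjusted p = 0.0270). The WT call was lost without WT FO replicate 2 (0.77, adjusted p = 0.0676) and without WT MZ replicate 1 (0.78, adjusted p = 0.0747). The cKO call was lost without cKO FO replicate 2 (0.60, adjusted p = 0.139), cKO MZ replicate 1 (0.84, adjusted p = 0.128) or cKO MZ replicate 2 (0.81, adjusted p = 0.120).

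Icam1 (chr9:21015985-21028817, plus strand), the inducible ligand of LFA-1, was higher in MZ cells of WT mice. It was at 1273 and 1748 in FO and 2238 and 2480 in MZ libraries from WT mice, and at 1395 and 1547 in FO and 1967 and 2319 in MZ libraries from cKO mice. MZ libraries were above FO libraries without overlap in both genotypes. The difference was called in WT, at −0.66 ± 0.16 on the log2 scale (SE; adjusted p = 0.0288, limma), and not in cKO, at −0.54 (95% interval −0.91 to −0.17, adjusted p = 0.0522). The difference between the genotypes was itself not called (adjusted p = 1.00, limma). With quantile normalization the cKO difference was called (−0.60, adjusted p = 0.0360). The WT call was lost when any of 5 libraries was left out. Its value was −0.43 without WT FO replicate 1 (adjusted p = 0.117), −0.73 without WT MZ replicate 1 (adjusted p = 0.0656) and −0.59 without WT MZ replicate 2 (adjusted p = 0.118). Removal of cKO FO replicate 1 or 2 left it at −0.66 with adjusted p of 0.0505 and 0.0507. Per kilobase, Icam1 was 0.222 to 0.274 of Icam2 in the FO libraries and 0.580 to 0.830 in the MZ libraries. Icam1 shares 511 exon bases with the antisense gene Gm47079, which had a mean of 0.964 normalized counts.

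Cd44, a receptor for hyaluronan, was at 1681 and 1634 in FO and 1998 and 2535 in MZ libraries from WT mice, and at 1553 and 1312 in FO and 1736 and 1436 in MZ libraries from cKO mice. WT MZ libraries were above WT FO libraries, and the cKO libraries of both subsets overlapped. The log2 difference of FO from MZ was −0.44 in WT (95% interval −0.79 to −0.095, adjusted p = 0.0868, limma) and −0.15 in cKO (−0.49 to 0.20, adjusted p = 0.539).

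**Figure D2:**
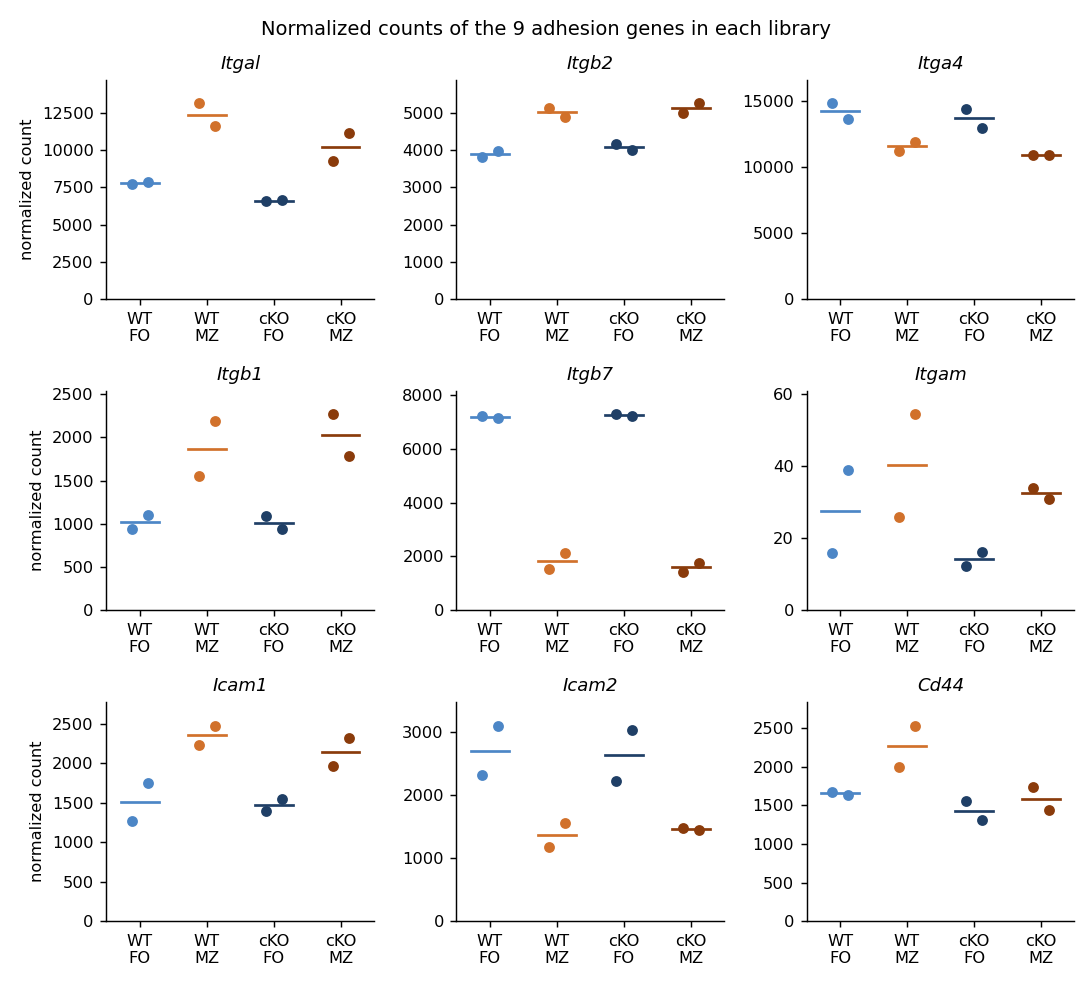
Normalized counts of each gene in every library, with 1 panel per gene, a linear axis from 0, 1 point per library and a line at the mean of each group of 2. Itgb7 was between 7131 and 7277 in the FO libraries and between 1416 and 2111 in the MZ libraries, whereas Itgam was at 54.3 or less throughout.

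Counted together, 5 of the 9 genes were called between FO and MZ in WT, against 12% of all genes tested. Itgb7 and Icam2 were higher in FO, against 4.62% of all genes, and Itgal, Itgb1 and Icam1 were higher in MZ, against 7.41%. In cKO, 4 of 9 were called, against 13.7% of all genes. Itgb7 and Icam2 were higher in FO (all genes 5.54%), and Itgal and Itgb1 were higher in MZ (all genes 8.18%). These 4 genes were called in both genotypes, as were 10.3% of all genes. FO and MZ libraries did not overlap for 8 of 9 genes in either genotype, against 55.3% of all genes in WT and 65% in cKO. The median log2 difference over the 9 genes was −0.44 in WT and −0.32 in cKO, against 0.0048 and 0.0047 over all genes.

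**Figure D3:**
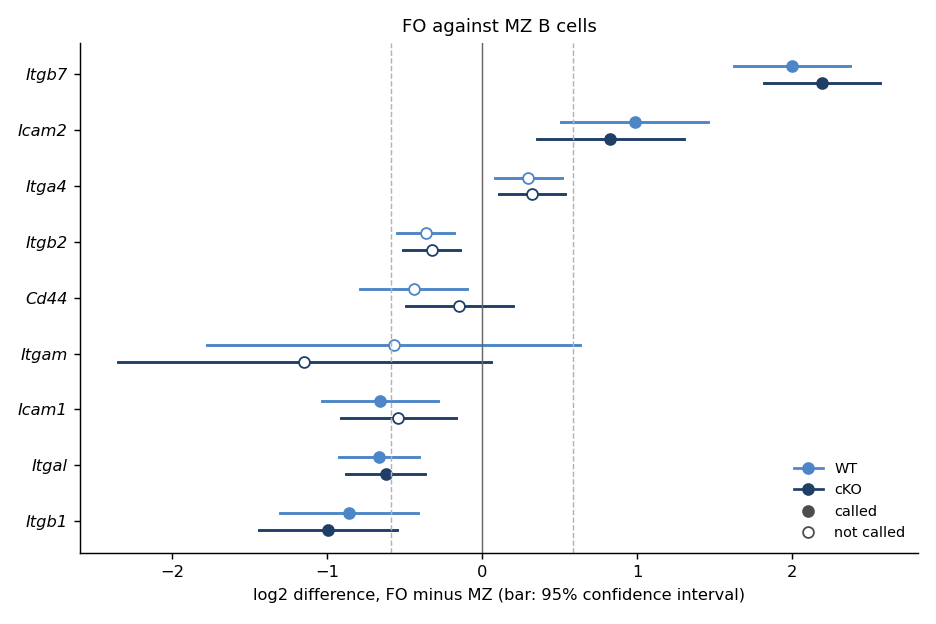
Log2 difference of FO from MZ for each gene in WT and cKO, with 95% confidence intervals from limma, filled points for called genes and dashed lines at 1.5-fold. Itgb7 stood at 1.997 and 2.19, and Icam1 was called in WT and not in cKO.

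The order of the levels per kilobase also differed between the subsets. In FO cells of both genotypes Itgb7 was the highest, at a mean of 2588 in WT and 2615 in cKO, followed by Icam2, Itgb2, Itgal, Itga4, Icam1, Itgb1, Cd44 and Itgam. Among the neighbours in this order, the libraries of Icam2 and Itgb2 and those of Itgb1 and Cd44 overlapped in both genotypes, and those of Itgal and Itga4 overlapped in cKO. In WT MZ cells the order was Itgal (1880), Itgb2 (1641), Itga4, Icam2, Itgb7 (657), Icam1, Itgb1, Cd44 and Itgam, and the libraries of each neighbouring pair from Itga4 to Itgb1 overlapped. In cKO MZ cells Itgb2 (1678) came before Itgal (1555) with overlapping libraries, and Itgb7 (575), Itgb1 and Icam1 overlapped as neighbours. The order depends on the exon length used: with the longest transcript, 4 of 9 genes kept their place in FO and 7 in MZ cells of WT mice, and 6 in FO and 2 in MZ cells of cKO mice.

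The loss of Gtf2i in cKO mice was then compared within each subset. None of the 9 genes was called between cKO and WT in MZ or FO cells, in the mean of both subsets or in the interaction of genotype and subset, by limma, DESeq2 or edgeR. All-gene shares called by limma were 0.0339% in MZ, 0.0677% in FO, 0.108% over both and 0% for the interaction. With DESeq2 they were 0.318%, 0.163%, 0.467% and 0%, and with edgeR 0.0271%, 0.061%, 0.108% and 0%. At an unadjusted p under 0.05, Cd44 and Itgal passed in MZ cells (2 of 9, all genes 4.04%), none passed in FO cells (all genes 2.59%), the same 2 passed over both subsets (all genes 6.63%) and none in the interaction (all genes 0.637%). WT and cKO libraries did not overlap for 3 of 9 genes in MZ (all genes 34.5%) and for 4 of 9 in FO (all genes 24%). The medians over the 9 genes were −0.14 in MZ and −0.04 in FO on the log2 scale, against −0.015 and −0.0099 over all genes.

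Cd44 and Itgal had the lower values in cKO in both subsets. In the values given above, each cKO library was lower than each WT library of its subset for these genes. This pattern was found in 5.46% of all genes. For Cd44 the log2 difference of cKO from WT was −0.51 in MZ (95% interval −0.86 to −0.16, unadjusted p = 0.00959, adjusted p = 0.998, limma). It was −0.22 in FO (−0.56 to 0.13, adjusted p = 1.00) and −0.36 over both (−0.61 to −0.12, unadjusted p = 0.00936, adjusted p = 0.608). Without cKO MZ replicate 1 the value in MZ was −0.65, and with each library left out in turn it ranged from −0.68 to −0.34. For Itgal the difference was −0.28 in MZ (−0.53 to −0.021, unadjusted p = 0.0375, adjusted p = 0.998), −0.24 in FO (−0.49 to 0.020, adjusted p = 1.00) and −0.26 over both (−0.44 to −0.075, unadjusted p = 0.0117, adjusted p = 0.646). Without cKO MZ replicate 1 the Itgal value in MZ was −0.14. The sex-linked genes differ along with genotype in the same libraries. In each comparison of cKO with WT, effects of sex therefore cannot be told apart from the loss of Gtf2i, and their part was not tested.

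For the other genes the intervals show which sizes these data allow. The cKO minus WT interval of Itgb7 was −0.56 to 0.19 in MZ and −0.36 to 0.39 in FO, that of Itga4 was −0.30 to 0.13 in MZ and −0.27 to 0.16 in FO, and that of Itgb2 was −0.15 to 0.21 in MZ and −0.11 to 0.25 in FO. A change of 1.5-fold in either direction lies outside these 6 intervals. The interval of Itgb1 reached from −0.32 to 0.57 in MZ, also short of 1.5-fold, and from −0.46 to 0.44 in FO. That of Icam1 was −0.51 to 0.23 in MZ and −0.39 to 0.35 in FO. For Icam2 it was −0.36 to 0.59 in MZ, where it just reached 1.5-fold, and −0.52 to 0.43 in FO. The widest was that of Itgam, from −1.41 to 0.99 in MZ and from −1.99 to 0.41 in FO.

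**Figure D4:**
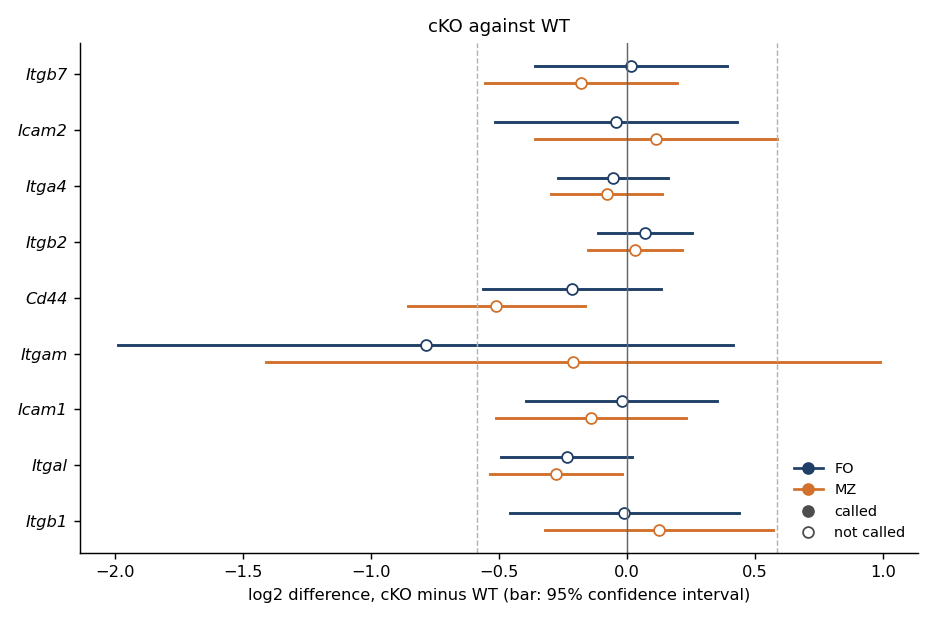
Log2 difference of cKO from WT for each gene in FO and MZ cells, with 95% confidence intervals from limma and dashed lines at 1.5-fold. No point is filled, since no gene was called. The intervals of Cd44 and Itgal in MZ cells lie below 0.

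The genes that surround these 9 in integrin function were described from 3 lists. Of 12 other integrin subunits tested, 2 were called between FO and MZ in WT and the same 2 in cKO, against 12% and 13.7% of all genes. Of all genes, 10.3% were called in both genotypes. Itga6, which encodes the α6 chain of laminin receptors, was at 908 and 965 in WT FO and at 130 and 259 in WT MZ, a log2 difference of 2.34 ± 0.31 (SE; adjusted p = 0.00262, limma), and the value in cKO was 2.55 ± 0.31 (adjusted p = 0.0016). Itgb3, the β3 chain, was higher in FO by 1.29 ± 0.19 in WT (adjusted p = 0.00386) and 1.18 ± 0.19 in cKO (adjusted p = 0.00486). Median differences of the 12 subunits were −0.10 in both genotypes.

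Of 32 genes of integrin activation and cytoskeletal linkage, 4 were higher in FO and 2 in MZ in WT, and 6 and 1 in cKO. Over all genes 4.62% were higher in FO and 7.41% in MZ in WT, and 5.54% and 8.18% in cKO. Of the genes called from the list, 4 FO genes and 1 MZ gene were called in both genotypes. Over all genes, 1776 were called in WT and 1515 in both genotypes. Rasgrp2, the exchange factor that activates Rap1, was higher in FO by 0.89 ± 0.14 in WT on the log2 scale (SE; adjusted p = 0.00464, limma), and the GTPase gene Rap1b by 1.05 ± 0.19 (adjusted p = 0.00942). Flna, an actin cross-linker that binds β chain tails, was higher in FO by 1.15 ± 0.11 (adjusted p = 0.000713) and Msn, which links membrane proteins to actin, by 0.62 ± 0.10 (adjusted p = 0.00488). Higher in MZ were Ptk2, the focal adhesion kinase (−0.87 ± 0.19, adjusted p = 0.0200), and Vcl, which encodes vinculin (−0.68 ± 0.16, adjusted p = 0.0246). In cKO, Ptk2 was not called (−0.60, adjusted p = 0.0674), and the other 5 were. The median of the list was 0.065 in WT and 0.18 in cKO.

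Of 26 other adhesion molecules and integrin ligands, 7 were higher in FO and 3 in MZ in WT, and 7 and 6 in cKO, against the same all-gene shares of 4.62% and 7.41%, and of 5.54% and 8.18%. All 10 of the WT calls were also called in cKO. Over all genes, 1776 were called in WT and 1515 in both genotypes, so most called genes shared this. L1cam and Alcam, both adhesion molecules of the immunoglobulin superfamily, were higher in FO by 2.24 ± 0.15 on the log2 scale in WT (SE; adjusted p = 0.000173, limma) and 2.25 ± 0.18 (adjusted p = 0.000258), and Cd2 by 0.86 ± 0.11 (adjusted p = 0.00188). Higher in MZ were Cdh17, or cadherin 17 (−3.32 ± 0.16, adjusted p = 3.18e-05), Epcam (−2.07 ± 0.30, adjusted p = 0.00359) and Cdh5, an endothelial cadherin (−2.04 ± 0.37, adjusted p = 0.00932). The median of the list was −0.025 in WT and −0.096 in cKO. Between cKO and WT, no gene of the 3 lists was called by limma or edgeR in either subset, over both or in the interaction. DESeq2 called 1 of them, Nectin1, in MZ and over both subsets. At an unadjusted p under 0.05, the 3 lists had 0, 4 and 4 genes in MZ and 0, 2 and 2 genes in FO, of 12, 32 and 26 tested, against 4.04% and 2.59% of all genes.

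Nectin1, an immunoglobulin superfamily adhesion molecule, is described after its values were seen. It was at 138 and 93.2 in FO and 36.6 and 34.4 in MZ libraries from WT mice, and at 244 and 293 in FO and 82.7 and 146 in MZ libraries from cKO mice. Each cKO library was above each WT library of its subset. WT and cKO libraries did not overlap, in either direction, for 34.5% of all genes in MZ and 24% in FO. The share of genes higher in cKO in both subsets is not given here. For Nectin1 the log2 difference of cKO from WT in MZ was 1.61 (95% interval 0.87 to 2.34, adjusted p = 0.515, limma), and DESeq2 gave 1.70 with an adjusted p of 0.0073. In FO it was 1.23 (0.49 to 1.97, adjusted p = 1.00, limma), with an adjusted p of 0.226 by DESeq2. Over both subsets it was 1.42 (0.90 to 1.94, adjusted p = 0.114, limma), with an adjusted p of 2.03e-05 by DESeq2 and 0.134 by edgeR.

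**Figure D5:**
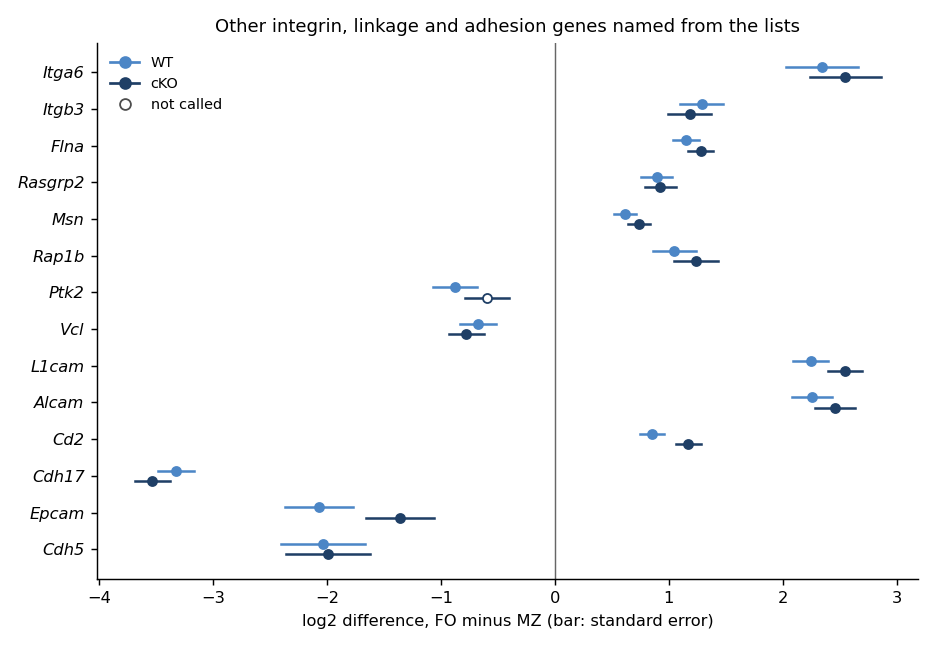
Log2 difference of FO from MZ in WT and cKO for the genes named from the 3 lists, with standard errors. Filled points were called, and Ptk2 in cKO is the open point. Cdh17 lay furthest on the MZ side (−3.32 in WT) and Itga6 furthest on the FO side (2.34 in WT).

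For the 4 genes called in both genotypes, the genes with the most similar profile over the 8 libraries were found by Euclidean distance between log2 values centred on their mean. The profile of Itgb7 was closest to those of Gm8369 (distance 0.336), Bcl6 (0.337) and Bach2 (0.366). Bcl6, a transcriptional repressor of germinal centre B cells, was at 3925 and 3182 in WT FO and at 884 and 967 in WT MZ. The nearest to Icam2 were Lrrc56 (0.117), Chst3 (0.185) and Acss2 (0.195). Those nearest to Itgal were Sh3bp1 (0.193) and Oas2 (0.225), and those nearest to Itgb1 were Gm17491 (0.28), Mttp (0.286) and Pgm2 (0.326).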

How the data were processed

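RNA-seq was analysed from 8 libraries; the 8 ATAC-seq samples were not analysed here. According to the study's methods, the authors aligned 50 base single-end reads with HISAT2 to mm10, counted them on genes and normalized them with DESeq2; versions are not given in the sources used here. The deposited signal is that table of normalized counts. After 256343 blank lines were left out it held 27928 genes, of which 27347 were found by identifier in GENCODE M21 (GRCm38), the source of gene coordinates and exon lengths. Multiplication by the recovered size factors gave whole reads for 100% of values (tolerance 0.01).

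Because the values are normalized, the main test was limma (3.58.1, R 4.3.3; lmFit, eBayes with trend) on log2(value + 1) over all 8 libraries and the 14761 genes with a mean of at least 10. Differences are on that scale, and adjustment was by Benjamini-Hochberg over all genes tested. The 6 comparisons were FO minus MZ in each genotype, cKO minus WT in each subset, the mean of the latter, and their difference (interaction). DESeq2 (1.42.0) and edgeR (4.0.16, quasi-likelihood) were run on the recovered reads as alternatives; other settings changed the pseudocount, filter, normalization, fold threshold, libraries and replicate block. The scripts were tested on simulated data. The genes of interest, the lists and the named genes (up to 4 per direction, by smallest limma p among those called in WT) were chosen with earlier results of these data known. Some of the genes that this rule named are not reported here. Promoter windows are from RefSeq (GRCm38.p6).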

Additional observations from a re-analysis of the deposited data

How the results depend on the processing

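Of the 5 genes called between FO and MZ in WT, 2 were called when only the 4 libraries compared were fitted. Over all genes, that fit called 378 higher in FO and 636 higher in MZ, against 682 and 1094 in the main fit. At a 2-fold threshold 1 gene (Itgb7) was called in WT, and cKO also kept 1 of 4. All-gene counts at that threshold are not given here. Leaving out each library in turn gave 2 to 5 called genes in WT and 2 to 4 in cKO. No alternative called any of the 9 genes in a comparison of cKO with WT or in the interaction, including a fit with subset as an additive term, chosen after seeing the data. Over all genes, limma called 5 between cKO and WT in MZ, 10 in FO and 16 over both, and DESeq2 called 47, 24 and 69. With the longest transcript as gene length, 4 of 9 genes kept their rank per kilobase in FO and 7 in MZ cells of WT mice, and 6 in FO and 2 in MZ cells of cKO mice.

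The replicate numbers were not taken to pair the samples. Correlations of same-numbered deviations were 0.59 between WT FO and WT MZ and −0.0015 between cKO FO and cKO MZ. Between groups of different genotype they ranged from −0.30 to 0.29. A block by replicate number holds the same shift for both genotypes, so pairing within WT alone was not tested. With the replicate number as a block, 5 genes were called in WT and 4 in cKO. Over all genes, that block called 789 higher in FO and 1184 higher in MZ in WT, and 934 and 1328 in cKO. The main fit called 682 and 1094 in WT, and 818 and 1208 in cKO. A block with the numbers of cKO MZ exchanged, chosen after seeing the data, also gave 5 and 4. Its all-gene calls were 903 and 1359 in WT, and 1045 and 1540 in cKO.

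Values that were not called changed sign in places. With quantile normalization the interaction was 0.00065 for Itgal and 0.015 for Itgb2. When each library was left out, the ranges that cross 0 were as follows. FO minus MZ in WT was −1.19 to 0.049 for Itgam. In MZ, cKO minus WT was −0.0068 to 0.070 for Itgb2, −0.12 to 0.37 for Itgb1, −0.42 to 0.052 for Itgb7, −0.73 to 0.31 for Itgam and −0.092 to 0.32 for Icam2. In FO it was −0.13 to 0.021 for Itga4, −0.13 to 0.11 for Itgb1, −0.25 to 0.21 for Icam1 and −0.27 to 0.18 for Icam2. Over both subsets it was −0.067 to 0.18 for Itgb1, −0.20 to 0.033 for Itgb7, −0.20 to 0.032 for Icam1 and −0.079 to 0.15 for Icam2. For the interaction it was −0.18 to 0.093 for Itgal, −0.077 to 0.00027 for Itgb2, −0.10 to 0.054 for Itga4, −0.11 to 0.38 for Itgb1, −0.43 to 0.037 for Itgb7, −0.043 to 1.19 for Itgam, −0.35 to 0.11 for Icam1 and −0.068 to 0.38 for Icam2. Of all recomputed values, 892 kept their direction and their side of the threshold, 27 lost a call, 4 gained one and 40 changed sign; the cause was not tested.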
